A study of Bos taurus with 6 samples.

Results

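GRM5 and NRXN2 are 2 synapse genes on cattle chromosome 29, and they were selected on measured values, since each carries 1 of the 334 regions that the authors' deposited table lists as differently methylated between Creole and Spanish cattle. They are 2 of the 263 gene names in that table. For each gene, the listed gene range and 20000 bp on either side were taken, and every cytosine with at least 10 read calls in a library was used. The GRM5 interval ran from 7108510 to 7260131 (build UMD3.1, 151.622 kb, gene range 7128510 to 7240131) and the NRXN2 interval from 43456403 to 43596128 (139.726 kb, gene range 43476403 to 43576128). The files give no strand for either gene, and the table counted its distances from the low-coordinate end in all 275 named regions, so which end holds the start of transcription is not stated here.

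The series profiled blood DNA of 6 adult males by reduced representation bisulfite sequencing, which cuts DNA at CCGG sites with MspI, keeps short fragments and reads unmethylated cytosines as thymine after bisulfite treatment. Among the Creole animals, Creole 1 was a Sanmartinero, while Creole 2 and Creole 3 were both Costeno con Cuernos. Among the Spanish animals, Spanish 1 was a Retinta, Spanish 2 an Asturiana de los Valles and Spanish 3 of the Lidia breed. There was 1 library per animal, so spread within a group includes spread between breeds in both groups. DNA of the Creole animals was isolated with the UltraClean BloodSpin kit and that of the Spanish animals with the QIAamp kit. Kit and group therefore cannot be told apart. The split by sequencing lane also followed the groups, so any lane effect would show as a difference between Creole and Spanish animals. Blood is a mixture of cell types, and a change in the mixture and a change within a cell type cannot be told apart either.

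GRM5 encodes the metabotropic glutamate receptor mGluR5, a receptor of the postsynaptic membrane that signals through Gq proteins and phospholipase C. NRXN2 encodes neurexin 2, a presynaptic adhesion protein that binds neuroligins and other partners across the synaptic cleft, and neurexin genes have alternative promoters for a long and a short form. Both proteins are known for their roles in neurons, and blood is not the tissue in which those roles were described. In mammals, CpG-dense stretches at promoters are usually unmethylated and the bodies of genes usually methylated, and a CpG normally carries the same state on both of its strands.

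Depth was uneven between animals. Libraries held 40986296 to 84537374 calls in all, and 370409 to 1604013 cytosines of the chromosomes reached 10 calls. In the GRM5 interval, 149, 48 and 28 cytosines reached 10 calls in Creole 1 to 3, and 98, 42 and 16 did so in Spanish 1 to 3. NRXN2 was covered more densely, with 383, 83 and 110 such cytosines in the Creole libraries and 156, 422 and 159 in the Spanish ones. Different animals were mostly read at different cytosines. Of 225 GRM5 cytosines with 10 calls in any library, 138 had them in 1 library alone and 4 had them in all 6. For NRXN2 these counts were 438 and 6 of 767. GRM5 was measured in 16 windows of 1000 bp, with none in the 53.0 kb from 48.491 to 101.491 kb after the low end of its range, and NRXN2 in 63 windows, with no gap over 9.0 kb.

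**Figure D1:**
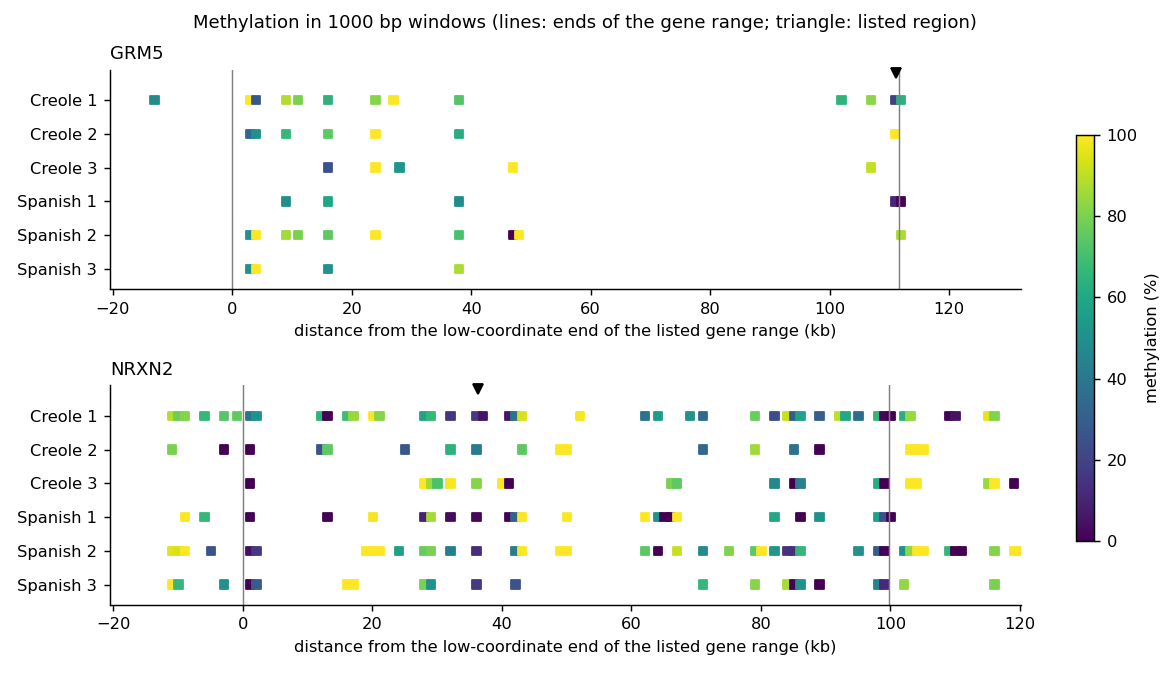
Methylation in 1000 bp windows along the GRM5 interval (top) and the NRXN2 interval (bottom); each square is 1 window in 1 library, coloured by percent methylation over cytosines with at least 10 calls, and the x axis is the distance in kb from the low-coordinate end of the gene range. GRM5 has 16 measured windows with a 53.0 kb gap, and NRXN2 has 63 spread over its whole length.

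The listed region of GRM5 was almost fully methylated in Creole 2 and Spanish 1 and mostly unmethylated in Creole 1, so the Creole animals differed from each other about as much as Creole 1 differed from Spanish 1. The region lies at 7239598 to 7239744 on chromosome 29, on an exon per the authors' deposited table, with 387 bp to the high end of the gene range. The authors' deposited table gives it 38 CpGs and means of 32.0% in Creole and 86.0% in Spanish animals. Its 38 entries match the 38 cytosine positions of both strands that the coverage files hold there. One region of the table has more. These values chose the gene and are given as a description, with no test.

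Over cytosines with 10 calls, Creole 1 read 17.1% in the GRM5 region (95% Wilson interval 12.9 to 22.4%, 245 calls at 18 cytosines). Creole 2 read 99.9% (99.3 to 100%, 864 calls at 18 cytosines). Spanish 1 read 100% (99.4 to 100%, 680 calls at 38 cytosines). The remaining libraries had no cytosine with 10 calls. The intervals cover counting error only, because calls along a fragment share reads and copies made in the 20 PCR cycles were not marked. The Creole mean was 58.5% ± 58.5 (SD, n = 2) against 100% in Spanish 1 alone, a difference of -41.5 points for Creole minus Spanish.

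The level of Creole 1 did not come from partly methylated cytosines. On the plus strand 15 of its 18 cytosines read 0 and 3 read 100%, with 13 or 14 calls at each, and none lay in between. The plus and minus strand are set here from which of 2 neighbouring covered positions a cytosine takes, the lower being the plus strand. Creole 2 had 48 calls at each of its 18 plus-strand cytosines, and 17 of them read 100%. Spanish 1 had 20 calls at every plus-strand cytosine and 16 at every minus-strand cytosine, all at 100%. Within a library, the depth was thus nearly the same at all cytosines of a strand along the region.

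Cytosines under the 10-call limit gave values for Creole 3 and Spanish 2, and none for Spanish 3. Creole 1 had 8 calls at each of 19 minus-strand cytosines and read 0.0% there. Creole 3 had 8 calls at each of its 20 cytosines and also read 0.0% (Wilson interval 0.0 to 2.34%, 160 calls). Spanish 2 had a single call at each of 20 cytosines, all methylated. The authors' Spanish mean of 86.0% lay below the 100% of Spanish 1 and Spanish 2, and how that mean was computed was not given. With calls of any depth, Creole libraries averaged 36.8% ± 54.9 (SD, n = 3) and Spanish libraries 100% ± 0.0 (SD, n = 2), a difference of -63.2 points. Creole 2, at 99.9% on plus-strand cytosines alone, lay beside the Spanish libraries and far from the other Creole libraries. Of the 20 cytosines of Creole 3 and of Spanish 2, 19 were on the minus strand and the last had no strand set. Creole 2 therefore shared no cytosine with Creole 3 or Spanish 2, and these values compare different cytosines. Without Creole 2 this any-depth difference was -94.8 points, and without Creole 1 it was -50.1 points (alternatives chosen after seeing the data). At the minimum of 10 calls, where the difference was -41.5 points, it was -82.9 points without Creole 2 and -0.116 points without Creole 1, which left Creole 2 against Spanish 1 alone, and no value could be given without Spanish 1. A minimum of 20 calls also left these 2 libraries.

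**Figure D2:**
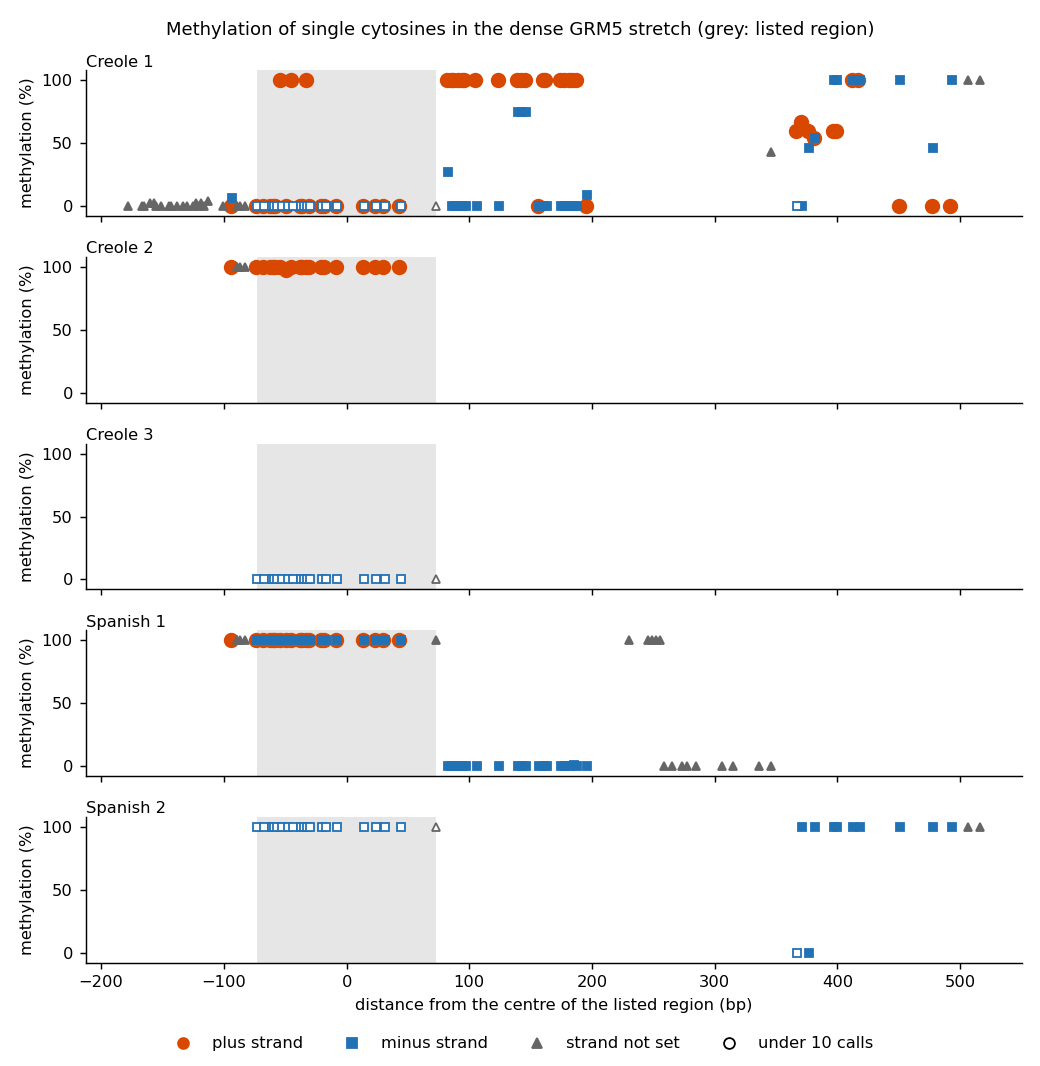
Methylation of single cytosines (y axis, percent) against the distance from the centre of the listed GRM5 region (x axis, bp), with a panel for each library that covers the stretch; large circles are plus-strand cytosines, small squares minus-strand cytosines, triangles cytosines whose strand was not set, and open symbols have fewer than 10 calls. Inside the grey listed region Creole 2 and Spanish 1 lie near 100% and Creole 3 at 0, while just beside it Spanish 1 falls to near 0.

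The listed region is part of a longer CpG-dense stretch (7239501 to 7240200, 140 covered cytosine positions), and levels changed sharply within it in the same animal. The authors' deposited table names no CpG island for the region. Below the region, from 7239493 to 7239597, Creole 1 read 0.90% over 25 cytosines (1000 calls), whereas Creole 2 and Spanish 1 read 100% over the 5 cytosines they covered from 7239577 on, at each of which Creole 1 read 0.0% on 14 calls. Above the region, from 7239754 to 7239867, Spanish 1 read 0.0707% over 20 minus-strand cytosines with 352 to 354 calls each. Between the cytosine at 7239744, the last of the region, and that at 7239754 the level of Spanish 1 went from 100% to 0.0%. The most deeply read part of the GRM5 stretch in a Spanish library was therefore unmethylated, next to a listed region read as fully methylated at 16 to 20 calls.

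Creole 1 showed opposite levels on the 2 strands of the same CpGs in this neighbouring part. Over 20 CpGs from 7239753 to 7239867 its plus strand read 90.0% (280 calls) and its minus strand 13.5% (229 calls). At 15 of the 20 CpGs the strands differed by at least 50 points. Across the whole GRM5 interval 18 of 31 CpGs with 10 calls on both strands did so in Creole 1, or 58.1%. Over all chromosomes it was 24.7% of 233225 CpGs in that library. All 31 lay in this dense stretch, 20 of them in the neighbouring part, 10 farther up and 1 below the region. The 58.1% thus describes 1 stretch, whose neighbouring CpGs share reads, and is no rate of the whole interval. In Spanish 1 it was 3 of 23, or 13%, against 24.3% over the chromosomes. Of these 23, 19 were CpGs of the listed region, and these read alike on both strands. The 3 opposite CpGs lay outside the dense stretch, with their plus-strand cytosines at 7144211, 7144215 and 7144336. The 13% was thus set mostly by the region that chose the gene.

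Farther up, both groups held intermediate and mixed levels. Spanish 1 read 100% at 5 and 0 at 9 of 14 cytosines from 7239901 to 7240017, with 10 or 11 calls each. From 7240037 to 7240187, Creole 1 read 64.9% over 23 cytosines (316 calls), with 4 at 0, 10 at 100% and 9 between. Spanish 2 read 91.8% over 12 cytosines there (195 calls), 11 at 100% and 1 at 0. No 100 bp bin of the dense stretch outside the listed region had 2 libraries in each group, so the planned comparison of the dense part of GRM5 between groups could not be made.

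Away from the dense end, GRM5 was mostly methylated in both groups, and Creole and Spanish levels overlapped. In the 10 bins of 100 bp with at least 2 libraries per group, group means averaged 65.2% in Creole and 68.5% in Spanish libraries. The difference was -3.34 points, and the larger of the 2 within-group SDs averaged 35.7 points over bins. Differences of opposite sign cancel in such an average and SDs cannot, so the SD is a description. Since 2 of these bins were measured in all 6 libraries, fewer than the 3 set for a test, none was run. The difference had the opposite sign under 5 of the alternatives tried, among them leaving out Creole 3, Spanish 2 or Spanish 3, and it ranged from -24.5 points without Creole 2 to 6.09 points without the cytosines at fragment ends.

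One GRM5 window could be compared in all 6 animals (7144001 to 7145000, within the gene range), and it did not separate the groups. Its 4 shared minus-strand cytosines gave 55.0% in Creole and 58.3% in Spanish libraries, a difference of -3.35 points. Fitted with edgeR (quasi-likelihood, 3 animals per group) over 2402 windows of the genome, its adjusted p was 0.981. This edgeR test called 0 of the 2402 windows (0.0%), and 135 had an unadjusted p under 0.05. By contrast, 16 were called with edgeR's likelihood ratio test and 0 with limma. Under the other settings that held the GRM5 window its adjusted p ranged from 0.892 to 0.999. The difference was 11.4 points without Creole 3 and 4.99 points without Spanish 2, so its sign rested on single animals.

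The single cytosines of this window showed more than its mean. The cytosine at 7144212 read 0.0% in all 6 libraries at 18 to 182 calls. Its neighbour at 7144216 read 0.0% in Spanish 1, 87.5% in Creole 1 and 100% in the other 4 libraries. At 7144286, Creole 3 read 0.87% and Spanish 3 0.0%, while Creole 2, Spanish 1 and Spanish 2 read 100% and Creole 1 84.6%. At 7144337, 125 bp from the first, Creole 3 again read 0.87% and the 3 Spanish libraries 100%, with Creole 1 at 85.6% and Creole 2 at 100%. A low animal was thus found in either group, and at these 4 cytosines Creole 1 was the one library with levels between 1% and 99%.

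**Figure D3:**
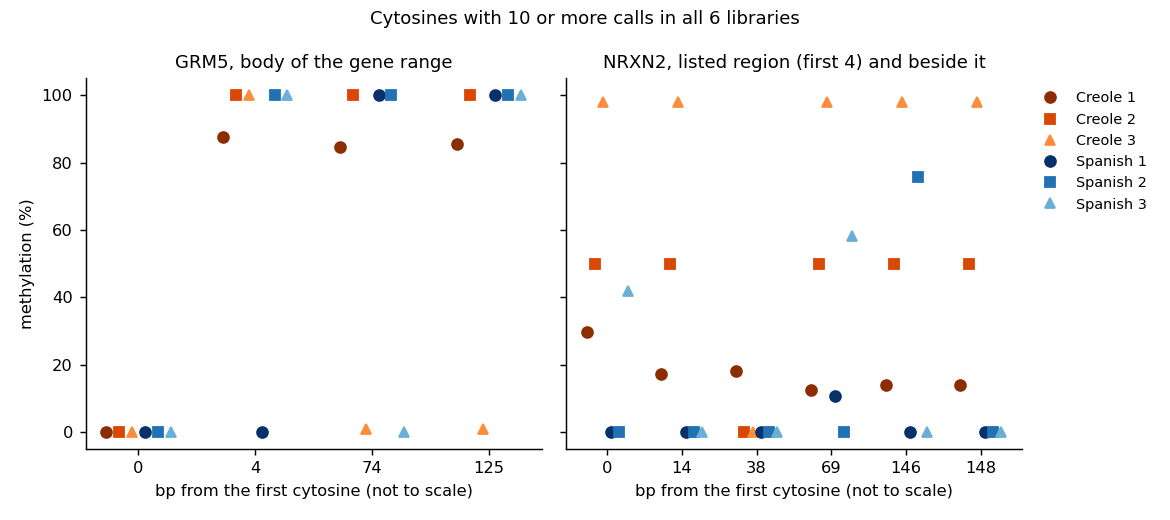
Methylation (y axis, percent) of the 4 GRM5 and 6 NRXN2 cytosines with at least 10 calls in all 6 libraries, one symbol per library, placed by order and labelled with the distance in bp from the first. The 4 GRM5 cytosines are on the minus strand, and the first reads 0.0% in all 6 libraries. At NRXN2 Creole 3 reads 98.1% at 5 of 6 cytosines while Spanish 1 stays at or below 10.8%.

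Among the 5 GRM5 windows with at least 2 libraries in each group, the one with the largest gap between group means held animals read on different strands. In the window at 7132001 to 7133000, Creole 1 read 27.3% and Creole 2 49.4%, while Spanish 2 and Spanish 3 read 100%, a difference of -61.7 points. No cytosine there was measured in all 4 libraries. The fragment spans 4 CpGs from 7131924 to 7132059, and Creole 2 was the only library with both strands. Its plus strand read 100% at the first 2 CpGs, 96.4% at the third and 0.0% at the last, and its minus strand read 0.0% at the first 3 and 100% at the last, so all 4 CpGs were opposite on their strands. On the minus strand alone, Spanish 2 and Spanish 3 read 0.0% at the first CpG and 100% at the other 3. Creole 2 and the Spanish libraries therefore differed at the 2 middle CpGs of that strand, with 58 calls in Creole 2, 17 in Spanish 2 and 14 in Spanish 3. The window that holds the first 2 of these CpGs, 7131001 to 7132000, had the opposite sign, with a Creole mean of 66.3% ± 47.7 and a Spanish mean of 50% ± 0.0 (SD, n = 2 each).

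The other named GRM5 windows overlapped between groups. At 7137001 to 7138000, Creole 1 read 88.1%, Creole 2 66.6%, Spanish 1 49.6% and Spanish 2 86.2%. At 7166001 to 7167000 the 2 Creole libraries averaged 67.6% ± 7.51 (SD, n = 2), and 3 Spanish libraries 68.9% ± 19.6 (SD, n = 3). Animals of both groups split the same way at one of its cytosines and were alike at another. At 7166736, Creole 1 and Spanish 2 read 100% and Creole 2 and Spanish 1 read 0.0%, while at 7166666 these 4 libraries all read 0.0%.

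The listed region of NRXN2 was higher in the Creole animals on average, but the animals formed a gradient with overlap between groups. It lies at 43512748 to 43512817 on chromosome 29, on an intron per the authors' deposited table and 36345 bp after the low end of the gene range. The authors' deposited table gives means of 85.0% in Creole and 12% in Spanish animals over 5 CpGs, and 4 covered cytosines fell inside these coordinates. Creole 1 read 19.3% (285 calls), Creole 2 37.5% (48 calls) and Creole 3 73.5% (830 calls). Spanish 1 read 2.69% (260 calls), Spanish 2 0.0% (132 calls) and Spanish 3 25% (496 calls). Spanish 3 lay above Creole 1. The authors' Creole mean of 85.0% lay above every Creole library here, and how that mean was computed was not given. The group means were 43.4% ± 27.6 and 9.23% ± 13.7 (SD, n = 3 each), and without Creole 3 the difference fell from 34.2 to 19.2 points. Over the 6 shared cytosines of its 1000 bp window, which include 2 beside the region, the groups did not overlap. Creole 1 to 3 read 17.6%, 41.7% and 81.7% there, and Spanish 1 to 3 read 1.80%, 12.6% and 16.7%. Of 47557 genome windows with at least 2 libraries per group, 21.6% had no overlap either. As this region chose the gene, no test is read from it or from its window.

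At single cytosines of this NRXN2 stretch, each Creole animal kept a level of its own over most positions, and the Spanish animals were at 0.0% over most. Creole 3 read 98.1% at the cytosines at 43512748, 43512762 and 43512817 and at 2 more beside the region, 43512894 and 43512896, with 207 or 208 calls at each. Creole 2 read 50% at the same 5 positions, with 12 calls at each. Creole 1 read 12.5% to 29.6% at all 6 positions, with 70 to 72 calls. The cytosine at 43512786, inside the region, differed from its neighbours. It read 0.0% in Creole 2, Creole 3 and all Spanish libraries, at 12 to 208 calls, and 18.1% in Creole 1. In the Spanish animals methylation was limited to single positions, which were not the same ones. Spanish 3 read 41.9% at 43512748 and 58.1% at 43512817 and 0.0% at the other 4. Spanish 1 read 10.8% at 43512817 alone, and Spanish 2 read 75.8% at 43512894 alone. At 2 of the 6 positions, 43512762 and 43512896, all 3 Creole libraries were above all 3 Spanish libraries, which read 0.0% there. These 2 positions were picked after their values were seen.

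The CpG-dense stretch at the high end of NRXN2 was unmethylated, and levels of the dense stretches inside the gene varied. A bin of 100 bp was called dense with 8 or more cytosine positions covered in any library, counted on both strands. Dense bins at most 200 bp apart were joined. This gave 23 stretches, 17 of them measured in at least 2 libraries. At 28 bp from the high end of the gene range, the stretch at 43575801 to 43576100 read 0.0% in Creole 1, Spanish 1 and Spanish 2, on 481, 519 and 548 calls. In the flank beyond it, the stretch at 43585901 to 43586500 read 4.84% in Creole 1 and 0.0% in Spanish 2. These 2 were the stretches below 20% in every library that measured them.

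At the low end, the stretch at 43477201 to 43478500, which starts 798 bp inside the gene range, was unmethylated in 3 animals and partly methylated in others. Creole 2, Creole 3 and Spanish 1 read 0.0% on 278, 825 and 166 calls. Spanish 2 read 5.14%, Spanish 3 24.1% and Creole 1 46.2%. Animals were read in different parts of this stretch. In the window at 43477001 to 43478000, the 5 libraries that shared the cytosines at 43477258, 43477275 and 43477281 all read 0.0% there, and Creole 1 reached 38.1% at 43477311 and 40.9% at 43477367, where the other 4 read 0.0%.

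**Figure D4:**
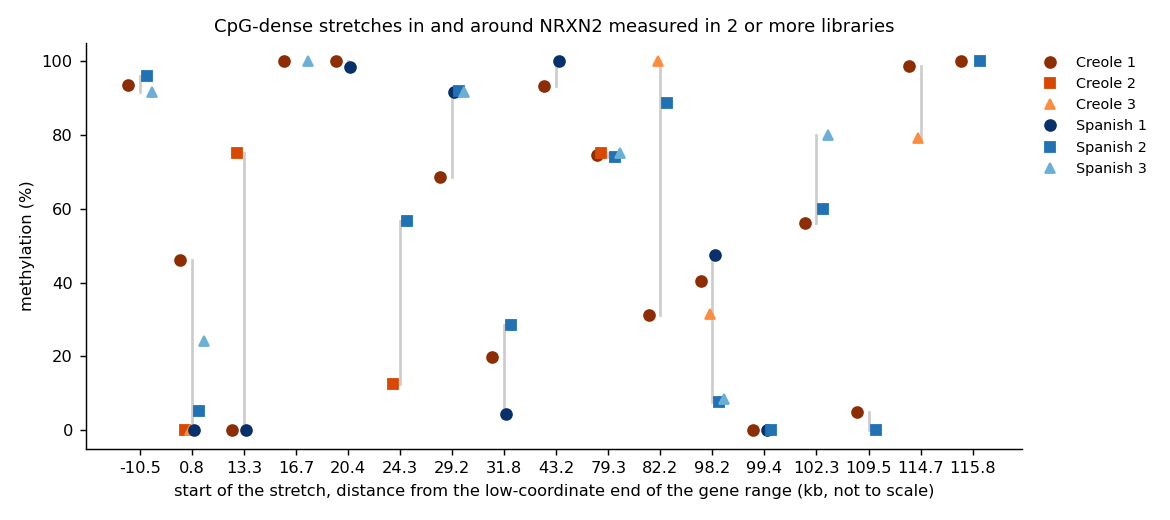
Methylation (y axis, percent) of the 17 CpG-dense stretches in and around NRXN2 that were measured in at least 2 libraries, ordered along the chromosome and labelled with the distance in kb from the low-coordinate end of the gene range; symbols are libraries and grey lines join the lowest and highest. The stretch at 99.4 kb reads 0.0% in 3 libraries, while the one at 13.3 kb spans from 0.0% to 75.0% with no cytosine common to its 3 libraries.

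Other dense stretches in and around NRXN2 were methylated. Of the 17 stretches, 5 read above 80% in every library that measured them. In the low flank, the stretch at 43465901 to 43466100 read 93.5% in Creole 1, 95.9% in Spanish 2 and 91.5% in Spanish 3. At 43505601 to 43505700, the Spanish libraries read 91.7%, 92% and 91.7% and Creole 1 68.8%. The stretch at 43555701 to 43555800 looked like an intermediate one, at 75% or just under in the 4 libraries that measured it (74.7% in Creole 1, 74.0% in Spanish 2). Its shared cytosines were not intermediate. On the plus strand, the cytosines at 43555724 and 43555792 read 100% in all 4 libraries and the one at 43555795 read 0.0% in all 4, and in Spanish 3 the minus-strand partner of the latter, 43555796, read 100% on 14 calls. This stretch was picked after its values were seen.

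Values of some dense NRXN2 stretches lay far apart, but the libraries were read at different cytosines of them. At 43489701 to 43489800, Creole 2 read 75.0% on 1012 calls, while Creole 1 and Spanish 1 read 0.0% on 92 and 728 calls, with no cytosine common to the 3. At 43558601 to 43558700, Creole 3 read 100%, Spanish 2 88.7% and Creole 1 31.2%. At the single cytosine that these 3 libraries shared there, 43558618, they read 100%, 50% and 31.2% on 40, 14 and 16 calls. In the stretch at 43574601 to 43575300, Spanish 2 read 7.70% and Spanish 3 8.57%, Creole 3 31.4%, Creole 1 40.4% and Spanish 1 47.6%. In the last of these the lowest and the highest library were both Spanish.

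Averaged over 100 bp bins, the dense part of NRXN2 read lower than the rest of the interval in each library, but not in 1000 bp bins. Over 100 bp bins outside the listed region, the dense bins of Creole 1 to 3 averaged 47.6%, 32.5% and 42.0%, and those of Spanish 1 to 3 averaged 37.7%, 30.2% and 38.3%. The other bins averaged 57.9%, 56.4% and 62.9% in the Creole libraries and 46.0%, 62.7% and 55.2% in the Spanish ones. This was not tested, as each library covers other bins, from 5 dense bins in Creole 2 to 33 in Creole 1 and Spanish 2. In 1000 bp bins with at least 2 libraries per group, the order was reversed. The 10 bins that touch a dense stretch averaged 58.8% in Creole and 56.5% in Spanish libraries, and the 5 others 39.9% and 36.6%.

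For both parts of NRXN2, the difference between groups was averaged over bins and is given beside the mean within-group SD of single bins. Differences of opposite sign cancel in such an average and SDs cannot, so the SD is a description and not a test. Over the 5 dense bins with at least 2 libraries per group, Creole libraries averaged 34.8% and Spanish libraries 23.6%, a difference of 11.3 points, where the larger within-group SD averaged 16.6 points over bins. Over the 14 such bins outside dense stretches, the averages were 44.5% and 50.1%, a difference of -5.54 points beside 22.5 points for that SD. Outside the listed region, 1 bin in dense and 0 in other sequence were shared by all 6 libraries, so no test was run. With dense bins set at 12 or more positions, the dense averages were 3.75% in Creole and 3.56% in Spanish libraries, on 2 bins. Both differences depended on the library or setting. That of the dense bins ranged from -0.99 points with a minimum of 5 calls to 15 points with all calls pooled, and was 2.56 points without Spanish 1, 4.48 points without Creole 3, 6.86 points without Spanish 2 and 0.0 points, on 1 bin, without Creole 1. That of the other bins was 15.5 points without Creole 1, 3.14 points without Creole 2, -1.03 points without Spanish 1, -10.9 points without Spanish 2 and -44.4 points without Spanish 3, the last on 1 bin. It was also above 0 with a minimum of 5 calls (0.0772 points), in 1000 bp bins (3.27 points) and with all calls pooled (5.50 points).

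Most of the named NRXN2 windows outside the listed region held no cytosine that all their libraries shared. At 43508001 to 43509000, Creole libraries averaged 59.7% ± 41.9 (SD, n = 3) and Spanish libraries 22.8% ± 28.1 (SD, n = 2), with no cytosine common to the 5 libraries. Cytosines shared by some of them were mixed. Those at 43508252 and 43508257 read 100% in Creole 1 and 0.0% in Spanish 1, and those at 43508255 and 43508269 read 100% in both. At 43508145 Creole 2 read 100% and Spanish 2 0.0%, and at 43508024 they read the reverse. At 43504001 to 43505000 the means were 79.1% ± 29.5 (SD, n = 2) and 55.0% ± 39.7 (SD, n = 3), again with no common cytosine. There the 3 cytosines at 43504966, 43504984 and 43504990 read 100% in Creole 3, Spanish 2 and Spanish 3 alike. The minus-strand cytosine at 43504531 differed, with 100% in Creole 1 against 0.0%, 20.0% and 19.2% in Spanish 1 to 3 (45, 22, 75 and 73 calls). That at 43504477 read 97.7% in Creole 1, 0.0% in Spanish 2 and 100% in Spanish 3. Single cytosines of these windows were picked after their values were seen. At 43558001 to 43559000 the means were 34.6% ± 15.8 and 56.2% ± 5.35 (SD, n = 2 each), with none in common.

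In another named NRXN2 window, a cytosine shared by all its libraries differed between the groups. At 43547001 to 43548000, Creole 1 and Creole 2 read 33.5% and 33.3%, Spanish 2 47.9% and Spanish 3 66.7%. The 4 libraries shared 3 cytosines. The one at 43547349 read 3.03% in Creole 1 and 0.0% in Creole 2 against 43.8% in Spanish 2 and 100% in Spanish 3. The one at 43547269 read 51.5% in Creole 1 and 100% in Creole 2, Spanish 2 and Spanish 3. The one at 43547410 read 0.0% in all 4. The cytosine at 43547349 was singled out after its values were seen. At 43561001 to 43562000, by contrast, 1 library of each group was at 0.0% over 3 shared cytosines (Creole 3 and Spanish 3). There Creole 1 read 28.9%, Creole 2 36.9% and Spanish 2 13.8%. This window was not among the 5 with the largest differences and was picked after its values were seen.

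The windows of both genes were set against those of the genome. Of 47557 windows of 1000 bp measured in at least 2 libraries of each group, 12.9% had group means at least 25 points apart, and 21.6% had no overlap between groups. Outside the listed regions, 1 of 5 GRM5 windows and 1 of 15 NRXN2 windows were at least 25 points apart. Groups did not overlap in 1 of 5 and 5 of 15. With so few windows, these shares give no difference from the genome. The range from the lowest to the highest library had a median of 49.7 points in GRM5 and 36.6 points in NRXN2, against 25 points over all such windows. In bins of 100 bp these medians were 66.9 points in GRM5 and 27.4 points in NRXN2 against 30.3 points, so NRXN2 lay above the genome's value at one size and below it at the other. The Creole mean was the higher one in 9 of the 15 NRXN2 windows and in 2 of the 5 GRM5 windows, and in 48.5% of windows over the genome. In 100 bp bins, Creole and Spanish means were each the higher one in 8 NRXN2 bins, with 3 equal, and in 5 GRM5 bins. Over the genome the Creole mean was the higher one in 43.1% of such bins.

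Most single cytosines of both genes read exactly 0 or 100%, as they did elsewhere in the genome. In GRM5 the share ran from 73.8% in Creole 1 to 100% in Spanish 3, and in NRXN2 from 67.1% in Creole 1 to 96.8% in Spanish 1. Over all chromosomes it ran from 68.6% in Creole 1 to 91.7% in Spanish 3. Creole 1 had the smallest share in both genes and over the chromosomes. It had the most calls in all and, at 8 calls, the lowest median per cytosine, and the part of depth in this share was not tested.

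**Figure D5:**
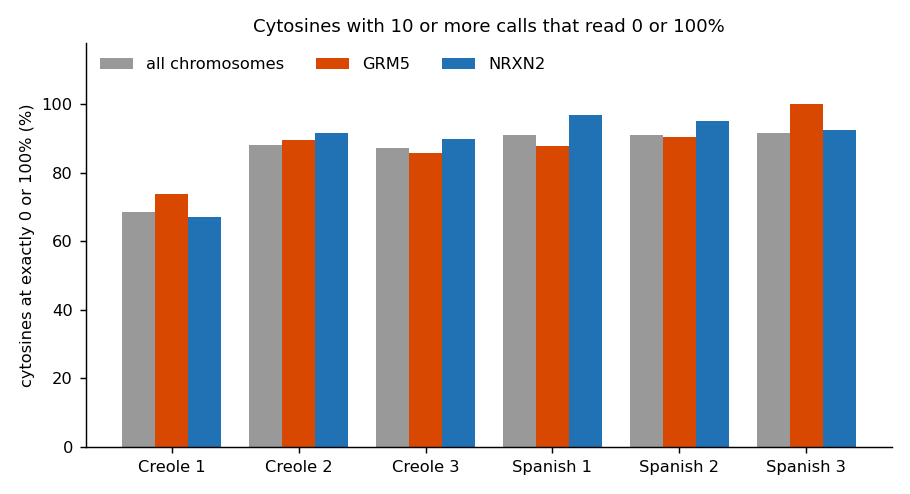
Share of cytosines with at least 10 calls that read exactly 0 or 100% (y axis, percent of cytosines), by library, for all chromosomes (grey), the GRM5 interval (orange) and the NRXN2 interval (blue). Creole 1 is lowest in all 3, at 68.6%, 73.8% and 67.1%.

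Among the other listed regions with a gene name, the one most like GRM5 over its 5 measured libraries was that of CXXC5_BOVIN, a CXXC zinc finger protein. It lies on chromosome 7 from 52510296 to 52510371. With calls of any depth, its level was 53.2% in Creole 1 and 13.8% in Creole 3, and Creole 2, Spanish 1 and Spanish 2 stood at 100%, a mean absolute difference of 11.4 points from GRM5, the smallest among 11 candidates. SERPINB1 and SHOX2 followed at 52.5 and 56.3 points. For NRXN2, over 6 libraries and 5 candidates, SHOX2, SP8 and FMN1 came nearest at 22.8, 25.1 and 33.1 points. All these regions were listed for a difference in the same libraries, so the likeness is a description.

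No other gene of the synapse list was named in the table. Of 71 further genes of glutamate signalling, synaptic adhesion, postsynaptic scaffolds and transmitter release, such as GRIN2B, NLGN1, SHANK3 and HOMER1, 0 matched the names of the 334 regions. Names were matched by symbol, also as the stem of a UniProt entry name, and entry names with another stem than the symbol were not searched. Of the 334 regions, 275 had a name, and 139 were named by symbol. The share of all cattle genes with a listed region was not computed, so 0 of 71 is no result about synapse genes. Methylation at those genes was not analysed here.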

How the data were processed

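Per the labels' protocols, blood DNA was cut with MspI, ends were filled in, and fragments were size selected, bisulfite converted and amplified in 20 PCR cycles. The submitters' processing notes name Trim Galore, Bismark, methylKit and the build UMD3.1. Roles, versions and settings were not given in the sources used here. The deposited coverage files hold counts of methylated and unmethylated calls per cytosine position, not normalized, and a percent column that the authors deposited beside them, which matched the counts in every line (0 mismatches). The authors' deposited table gives each group's mean as a fraction (printed as percent), and differences as Spanish minus Creole on that scale, turned here into Creole minus Spanish points. It has 0 columns of single samples.

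The members and gene lists were chosen with earlier results of these data known. Cytosines needed 10 calls. Windows were 1000 bp and bins 100 bp on a fixed grid, and values pooled the calls of a library's own cytosines. Groups follow the breed labels, with replicate numbers in sample order. The genome-wide test used edgeR 4.0.16 (R 4.3.3; quasi-likelihood test of methylated against unmethylated counts, a term per library, dispersion without trend, Benjamini-Hochberg adjustment, threshold 0.05) on windows with 3 or more cytosines measured in all 6 libraries, and was tested on simulated data. The likelihood ratio test and limma 3.58.1 (log2 ratio, 2 added to each count) were alternatives. Exact permutation tests of gene levels were planned, but fewer than 3 bins were shared by all 6 libraries. Of 3 animals against 3, their smallest p would be 0.10. Named were, per gene, the 5 windows with the largest difference of group means among those with 2 libraries per group, windows with a listed region, and for each region the 3 listed regions nearest in mean absolute difference. Wilson intervals (95%) came from scipy 1.17.1, and tables and plots from Python 3.11.15, pandas 2.3.3, numpy 2.4.6 and matplotlib 3.10.9. No sequence is shown, as no sequence of this build was used here.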

Additional observations from a re-analysis of the deposited data

How the results depend on the processing

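The count of windows called over the genome was 0 with edgeR's quasi-likelihood test, limma, read minima of 1, 5 and 20, 100 bp bins, a shifted grid, summed strands, fragment-end cytosines left out and each library left out (0 to 0), and 16 with the likelihood ratio test. The cause was not tested. The GRM5 window shared by all 6 libraries reversed to 8.15 points in 100 bp bins (3 of its 4 cytosines), 11.4 points without Creole 3 and 4.99 points without Spanish 2, and ranged from -13.4 to 11.4 points over the libraries left out. It did not enter the tests with a minimum of 20 calls or without fragment-end cytosines. Leaving out 1 library gave ranges of -82.9 to -0.116 points for the listed region of GRM5 (without Spanish 1 no value could be given; with calls of any depth -94.8 to -44.9, chosen after seeing the data), 19.2 to 46.3 for that of NRXN2, -24.5 to 4.18 for GRM5 outside dense stretches, -44.4 to 15.5 for NRXN2 outside them, and 0.0 to 14.3 for the dense part of NRXN2. No paired analysis was possible because replicate numbers follow sample order and tie no animals across groups. Depth limits the GRM5 region, where 3 libraries had no cytosine with 10 calls.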
